A study of Mus musculus with 6 samples.

Results

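The genes of the interleukin-6 (IL-6) family and STAT3 axis described here are 9 of the 34745 genes in the expression table. They were chosen by name and not by a cutoff on measured values, but with earlier results of these data known. They are the cytokines Il6, Lif and Il11, the receptor chains Il6ra, Il6st, Lifr and Osmr, the transcription factor Stat3 and its inhibitor Socs3. All 9 had values above 0 in all 6 libraries, and 8 of them reached the mean of 1 FPKM (fragments per kilobase of transcript, scaled to the mapped fragments of a library) that was needed for a test. Lifr did not, and its values are given without one.

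The RNA-seq libraries came from lung mesenchymal stromal cells (LMSCs), the fibroblast-like adherent cells of the lung, of MMTV-PyMT mice. In these mice the mouse mammary tumor virus promoter drives the polyoma middle T oncogene in the mammary epithelium, so tumors arise in the mammary gland and spread to the lung. There were 2 libraries for each of 3 tumor stages: adenoma (A-LMSCs, mice of 6 to 7 weeks, labelled E-LMSCs), pre-metastatic (PM-LMSCs, 9 to 10 weeks, labelled L-LMSCs) and metastatic (M-LMSCs, 13 to 14 weeks). All groups carried the transgene, were depleted of CD45+ cells with microbeads and were grown to passage 3 in DMEM with 10% FBS, so the values describe cultured cells without added cytokines, and a stage cannot be told apart from the age of the mice.

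Cytokines of the IL-6 family signal through gp130, the shared receptor chain encoded by Il6st, which pairs with a chain that is specific for each ligand. The receptor with its ligand activates the Janus kinases bound to it, which phosphorylate STAT3. Phosphorylated STAT3 enters the nucleus and drives its targets, among them Socs3, which feeds back to block the receptor. In the lung, fibroblasts are a known source of these cytokines, and the levels of mRNA measured here say nothing of secreted protein or of STAT3 phosphorylation.

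Each library held 14777000 to 20845000 fragments, estimated from the spacing of the lowest FPKM values. Mesenchymal markers were above the filter for 12 of 12 genes, with a summed level of 1694 to 2975 FPKM, and Ptprc (CD45) was at 0.0254 to 0.0987 FPKM. Other cell types' markers moved between libraries. The summed level of 12 haematopoietic genes, of which 6 passed the filter, was 133 and 125 FPKM in the adenoma libraries, 169 and 75.0 FPKM in the pre-metastatic and 406 and 292 FPKM in the metastatic ones, most of it from Lyz2. Of the 9 mesothelial markers all passed the filter, with sums of 124 and 184 FPKM, 306 and 430 FPKM, and 206 and 515 FPKM in the same order. None of 9 epithelial markers passed it, with sums of 0.413 and 1.45 FPKM, 0.815 and 0.852 FPKM, and 2.76 and 4.05 FPKM. Epcam was at 0 in all A-LMSC and PM-LMSC libraries. Of 7 endothelial markers 1 passed, with sums of 1.66 and 1.58 FPKM, 1.74 and 1.77 FPKM, and 2.97 and 2.74 FPKM. The low epithelial and endothelial sums were thus higher in both M-LMSC libraries than in any other library. Of 6 smooth muscle markers 6 passed, with sums of 8603 to 10071 FPKM.

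Per length of transcript, the most abundant of the 9 genes over the 6 libraries were Stat3, with a mean level of 19.9 FPKM, and Il6st, with 18.6 FPKM. Lif followed at 10.8 FPKM, Socs3 at 10.7 FPKM, Il11 at 7.65 FPKM, Osmr at 7.19 FPKM, Il6 at 3.02 FPKM, Il6ra at 1.07 FPKM and Lifr at 0.357 FPKM. Stat3 and Il6st overlapped in their ranges, as did each neighboring pair from Lif to Osmr. Il6st lay above Lif, Osmr above Il6, Il6 above Il6ra and Il6ra above Lifr with no overlap over the 6 libraries. The shared receptor chain was therefore present at 14.6 to 21.7 times the level of the IL-6-specific chain Il6ra within each library, at 30.8 to 81.8 times that of Lifr and at 1.92 to 3.17 times that of Osmr.

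**Figure D1:**
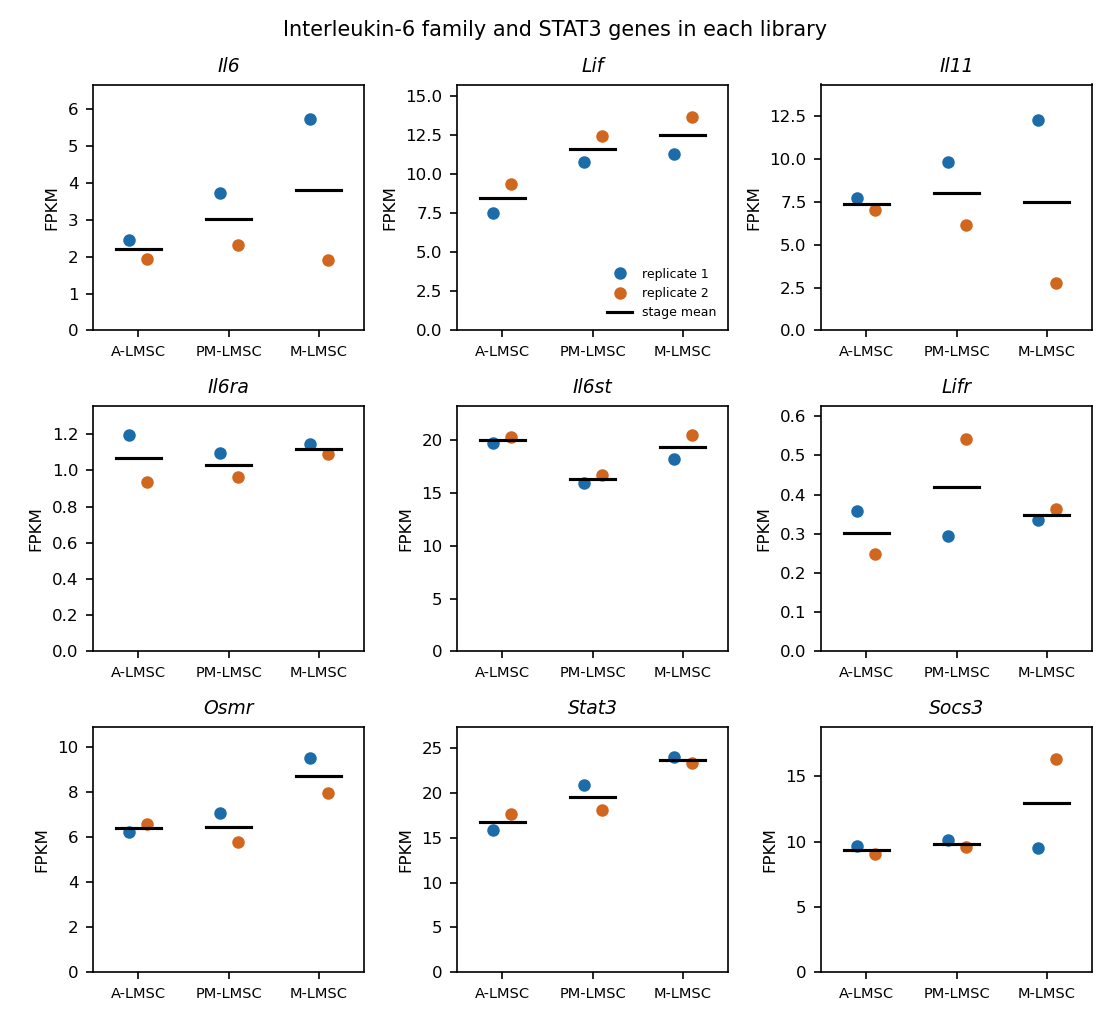
Level of each of the 9 genes in FPKM (vertical axes, each from 0) in the 2 libraries of each tumor stage (points, blue for replicate 1 and orange for replicate 2) with the stage mean (bar). Lif and Stat3 were higher in all 4 later-stage libraries than in both A-LMSC libraries, while the M-LMSC libraries lay far apart for Il6, Il11 and Socs3.

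The ligands are described first. Il6 (ENSMUSG00000025746), which encodes the founding cytokine of the family, a driver of inflammation and of the acute-phase response, lies on the plus strand of chromosome 5 of GRCm38 (mm10), from 30013114 to 30019981 in the GENCODE annotation. Lif (ENSMUSG00000034394), which encodes leukemia inhibitory factor, is a plus-strand gene of chromosome 11 (4257557 to 4272514). Il11 (ENSMUSG00000004371), which encodes a cytokine known for its action on fibroblasts and platelet precursors, is a minus-strand gene of chromosome 7 (4772373 to 4782859). No exon of the 3 genes overlaps another annotated gene, and none shares a stretch of at least 200 bases at 95% identity with another gene.

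The 250 bases before the transcription start of each ligand gene and of Socs3 are printed. Lif differed from Il6 and Il11 in the order of the libraries, and Socs3 is the textbook STAT3 target. The sequences are from RefSeq on GRCm38.p6, 5′ to 3′ on the strand of the gene, with matches to 4 motifs in capitals: AP-1 (TGANTCA), the core of the cyclic AMP response element (CRE, TGACGT), the NF-kB consensus and the palindromic STAT motif (TTCNNNGAA), searched on both strands. The Il6 window is chr5:30012864-30013113, plus strand, and the Lif window chr11:4257318-4257567, plus strand. Il11 has a pair of annotated starts. Its window shown, which held a motif match while the other did not, is chr7:4778142-4778391, minus strand. The Socs3 window is chr11:117969367-117969616, minus strand.
Il6: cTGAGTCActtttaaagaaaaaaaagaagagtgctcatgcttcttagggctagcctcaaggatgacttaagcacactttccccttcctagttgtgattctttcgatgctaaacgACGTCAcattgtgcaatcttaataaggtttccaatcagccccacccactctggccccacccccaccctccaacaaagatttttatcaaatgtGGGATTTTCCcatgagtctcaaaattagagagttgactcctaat
Lif: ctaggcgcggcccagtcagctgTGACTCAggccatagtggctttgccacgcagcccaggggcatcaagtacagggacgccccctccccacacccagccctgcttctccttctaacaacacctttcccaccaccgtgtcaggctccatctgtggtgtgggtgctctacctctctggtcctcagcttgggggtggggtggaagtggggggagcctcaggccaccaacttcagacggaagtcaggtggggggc
Il11: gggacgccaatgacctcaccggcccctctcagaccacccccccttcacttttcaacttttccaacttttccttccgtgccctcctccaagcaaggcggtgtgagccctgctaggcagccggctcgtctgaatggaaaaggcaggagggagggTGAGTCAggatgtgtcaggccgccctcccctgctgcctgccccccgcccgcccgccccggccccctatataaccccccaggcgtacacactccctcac
Socs3: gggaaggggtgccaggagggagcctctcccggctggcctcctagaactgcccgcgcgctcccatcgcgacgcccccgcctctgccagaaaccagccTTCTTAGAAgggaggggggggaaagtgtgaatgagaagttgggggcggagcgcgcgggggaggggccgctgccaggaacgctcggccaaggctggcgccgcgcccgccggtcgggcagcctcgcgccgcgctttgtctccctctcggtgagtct

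The 3 printed ligand windows held an AP-1 match, 249 to 243 bases before the start in Il6, 228 to 222 bases before it in Lif and 98 to 92 bases before it in Il11. In Il6 there was also a CRE core 136 to 131 bases before the start and an NF-kB match 44 to 35 bases before it. In Socs3 the STAT match lay 154 to 146 bases before the start. Among the 32817 promoters of the RefSeq table, windows of the same length held an AP-1 match in 6.75%, a CRE core in 6.46%, an NF-kB match in 3.9% and a STAT match in 7.01%. None of the 4 motifs was found in the windows of Il6ra, Il6st, Lifr, Osmr and Stat3 or in the other window of Il11. These matches are a description of the letters, not of binding.

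Of the 7 tested ligand genes of the family, Lif was the one with higher values in every later library than in both adenoma libraries. It was at 7.49 and 9.37 FPKM in the adenoma libraries, at 10.8 and 12.4 FPKM in the pre-metastatic and at 11.3 and 13.7 FPKM in the metastatic ones. The PM-LMSC and M-LMSC values overlapped each other. The adenoma mean was 8.43 ± 1.33 FPKM (SD, n = 2), the pre-metastatic mean 11.6 ± 1.18 FPKM (SD, n = 2) and the metastatic mean 12.5 ± 1.67 FPKM (SD, n = 2), a ratio of 1.38 for PM-LMSCs and of 1.48 for M-LMSCs against A-LMSCs. On the log2(FPKM + 1) scale, where fold changes of low genes are understated, Lif was higher by 0.42 in PM-LMSCs (standard error (SE) 0.16, limma adjusted p = 0.679) and by 0.52 in M-LMSCs (SE 0.16, limma adjusted p = 0.224). For the later stages combined the log2 fold change was 0.47 (SE 0.14, limma adjusted p = 0.279). Libraries with the same replicate number deviated together across the stages, but the labels do not say what such libraries share. Within a number the differences of Lif were close: 0.54 and 0.50 between M-LMSCs and A-LMSCs and 0.47 and 0.37 between PM-LMSCs and A-LMSCs. With the replicate number as a block, limma called Lif higher in M-LMSCs (adjusted p = 0.0421) and in the later stages combined (adjusted p = 0.0499), and not in PM-LMSCs (adjusted p = 0.140). Both calls depend on that assumed pairing and were absent without it. The mesothelial marker sums given above were, as Lif was, higher in replicate 2 than in replicate 1 at each stage and higher in all 4 later-stage libraries than in A-LMSCs. Their part in the result was not tested, and in these bulk cultures fewer cells of a type and less RNA per cell cannot be told apart.

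Il6 and Il11 differed more between the M-LMSC libraries than between the stage means. Il6 was at 2.47 and 1.94 FPKM in the adenoma libraries, at 3.73 and 2.33 FPKM in the pre-metastatic and at 5.74 and 1.90 FPKM in the metastatic ones. Il11 was at 7.72 and 7.06 FPKM in the adenoma libraries, at 9.87 and 6.18 FPKM in the pre-metastatic and at 12.3 and 2.75 FPKM in the metastatic ones. For both genes replicate 1 was above replicate 2 at every stage, M-LMSC replicate 1 was the highest library and M-LMSC replicate 2 the lowest. For Il6 that lowest value and the 1.94 FPKM of A-LMSC replicate 2 differed by less than the counting error. The M-LMSC libraries differed 3.02-fold in Il6 and 4.47-fold in Il11. They differed by over 1 on the log2 scale in 1.44% of the genes tested, and in these 2 of the 8 tested family and STAT3 genes. The gap was larger than the counting error, with an estimated 108 and 36.0 fragments of Il6 and 396 and 89.0 fragments of Il11 in the M-LMSC libraries, which counting alone places within 5.0 to 16.7% of their values. Against A-LMSCs, Il6 had a log2 fold change of 0.47 in M-LMSCs (SE 0.38, limma adjusted p = 0.582), with a 95% confidence interval from -0.45 to 1.39, and of 0.31 in PM-LMSCs (adjusted p = 0.913). Without M-LMSC replicate 1 its M-LMSC value was -0.14. The log2 fold change of Il11 in M-LMSCs was -0.25 (SE 0.54, limma adjusted p = 0.839), with an interval from -1.54 to 1.05, and it became 0.67 without M-LMSC replicate 2. The stage means of these genes thus rested on single M-LMSC libraries. The haematopoietic marker sums were also higher in replicate 1 than in replicate 2 at each stage, at 406 and 292 FPKM in M-LMSCs, and their part in the result was not tested.

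**Figure D2:**
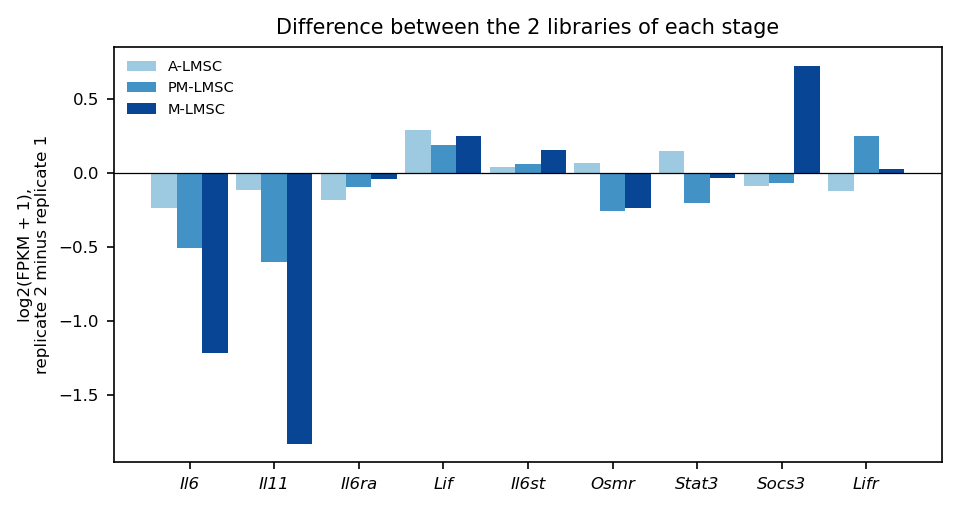
Difference between the libraries of each stage, replicate 2 minus replicate 1 in log2(FPKM + 1) (vertical axis), for the 9 genes, with 1 bar per stage. Il6 and Il11 lay below 0 at all stages, at -1.22 and -1.82 in M-LMSCs, Lif and Il6st lay above 0 at all stages, and Socs3 reached 0.72 in M-LMSCs alone.

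Across the 8 tested genes, replicate 1 was above replicate 2 at all 3 stages in Il6, Il11 and Il6ra, against 26.0% of all genes tested, and replicate 2 was above replicate 1 in Lif and Il6st, against 21.2%. M-LMSC replicate 1 was the highest library for Il6, Il11, Osmr and Stat3 (25.1% of all genes tested), and M-LMSC replicate 2 was the highest for Lif, Il6st and Socs3 (16.6%). Il6 and Il11 were the only 2 of the 8 to be lowest in M-LMSC replicate 2 (14.0%), Il6 by less than the counting error. The ratio of Lif to Il6 within a library, 1.97 in M-LMSC replicate 1 and 7.18 in M-LMSC replicate 2, spanned the whole range of the 6 libraries.

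The genes with the profile most like that of each ligand over the 6 libraries were found by the root mean square difference of their centered log2(FPKM + 1) values. For Il6 they were Mycbp2 (0.117), a ubiquitin ligase, Tgfb2 (0.119), a transforming growth factor beta ligand, and F3 (0.123), the tissue factor that starts coagulation, against a spread of 0.433 in Il6 itself. F3 was at 131 and 113 FPKM in the adenoma libraries, at 174 and 115 FPKM in the pre-metastatic and at 253 and 132 FPKM in the metastatic ones, and so was highest in the same library as Il6. For Il11, with a spread of 0.572, they were Grem1 (0.129), an antagonist of bone morphogenetic proteins, Ereg (0.202), an epidermal growth factor family ligand, and Yap1 (0.204), a transcriptional coactivator of the Hippo pathway. Grem1 was at 117 and 91.6 FPKM in the adenoma libraries, at 129 and 93.4 FPKM in the pre-metastatic and at 147 and 52.2 FPKM in the metastatic ones, so that it also was lowest in M-LMSC replicate 2. Among the 10279 genes tested, Il6 was the 80th nearest to Il11 and Il11 the 2064th nearest to Il6, at a difference of 0.349 in both. For Lif, with a spread of 0.257, the nearest were Il17rd (0.0496), which encodes an inhibitor of fibroblast growth factor signaling, Mettl7a1 (0.0590) and Kank1 (0.0655), a regulator of the cytoskeleton.

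Most of the remaining ligands of the family were low. Of the 12 genes on the ligand list 7 passed the filter, and without the block 0 of these were called by limma in any of the 4 contrasts (Lif and Clcf1 at an unadjusted p under 0.05). With it, Lif was the 1 called. Clcf1, which encodes cardiotrophin-like cytokine, was at 3.16 to 6.25 FPKM, and M-LMSC replicate 2 was its lowest library, as it was for Il11 and, narrowly, for Il6. Ctf1 (cardiotrophin 1) was at 1.37 and 1.24 FPKM in the adenoma and 1.19 and 2.91 FPKM in the metastatic libraries, and Cntf (ciliary neurotrophic factor) at 1.70 to 4.39 FPKM. Osm, which encodes the ligand of the Osmr chain and is made mainly by blood cells, was at 0.0376 to 0.308 FPKM, and Il27, Il31, Ctf2 and Ebi3 were at 0 in 1 or more libraries each.

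No receptor chain passed the test. Il6st (ENSMUSG00000021756; plus strand of chromosome 13, 112464070 to 112510086), the gp130 gene, was at 19.7 and 20.3 FPKM in the adenoma libraries, at 16.0 and 16.7 FPKM in the pre-metastatic and at 18.2 and 20.5 FPKM in the metastatic ones. Both PM-LMSC libraries lay below all 4 others, and the M-LMSC libraries overlapped A-LMSCs. The PM-LMSC mean was 0.817 times that of A-LMSCs, with a log2 fold change of -0.28 (SE 0.11, limma adjusted p = 0.736). This difference was -0.28 between libraries of number 1 and -0.27 between those of number 2, and with the replicate block its adjusted p was 0.288. For the metastatic stage it was -0.05, with a 95% confidence interval from -0.31 to 0.22.

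Il6ra (ENSMUSG00000027947; minus strand of chromosome 3, 89864059 to 89913196), which encodes the chain that binds IL-6, was near the limit of the test. It was at 1.20 and 0.939 FPKM in the adenoma libraries, at 1.10 and 0.965 FPKM in the pre-metastatic and at 1.15 and 1.09 FPKM in the metastatic ones, from an estimated 51.3 to 83.3 fragments per library. The stages overlapped, and the log2 fold change in M-LMSCs was 0.04 (SE 0.12, limma adjusted p = 0.890), with an interval from -0.24 to 0.32, and it turned to -0.03 under quantile normalization. Its exons share 242 bases with Gm42809 on the opposite strand, so that reads there cannot be told apart unless strand was used in counting. Lifr (ENSMUSG00000054263; plus strand of chromosome 15, 7090614 to 7197489), the LIF-specific chain, was at 0.357 and 0.249 FPKM in the adenoma libraries, at 0.295 and 0.543 FPKM in the pre-metastatic and at 0.334 and 0.363 FPKM in the metastatic ones. These values rest on an estimated 42.0 to 83.3 fragments, and the stages overlapped.

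Osmr (ENSMUSG00000022146; minus strand of chromosome 15, 6813577 to 6874969), which encodes the specific chain of the oncostatin M receptor, stood apart in M-LMSCs. It was at 6.22 and 6.60 FPKM in the adenoma libraries, at 7.08 and 5.78 FPKM in the pre-metastatic and at 9.50 and 7.95 FPKM in the metastatic ones. Both M-LMSC libraries lay above the 4 others, and A-LMSCs and PM-LMSCs overlapped. The M-LMSC mean was 1.36 times the mean of either earlier stage. The log2 fold change was 0.39 against A-LMSCs (SE 0.14, limma adjusted p = 0.292) and 0.39 against PM-LMSCs (SE 0.14, limma adjusted p = 0.510), and neither passed 0.05 with the replicate block, where the adjusted p values were 0.121 and 0.211. Haematopoietic, epithelial and endothelial marker sums were likewise higher in both M-LMSC libraries than in the 4 others, and their part in the result was not tested.

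On the list of 8 receptor genes 4 passed the filter: Il6st, Osmr, Il6ra and Il11ra1, and without the block 0 of them were called by limma in any contrast (Il6st and Osmr at an unadjusted p under 0.05). Il11ra1, which encodes the IL-11-specific chain, was at 8.59 and 9.14 FPKM in the adenoma libraries, at 8.09 and 11.0 FPKM in the pre-metastatic and at 7.50 and 10.4 FPKM in the metastatic ones, which was 6.53 to 11.4 times the level of Il6ra in the same library. Its level is uncertain, since it shares 2578 bases at 98.6% identity with Gm13305 and 1299 bases at 99.0% identity with Il11ra2. Cntfr, Il27ra and Il31ra did not pass the filter.

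Stat3 (ENSMUSG00000004040; minus strand of chromosome 11, 100885098 to 100939540) had its highest values in M-LMSCs, with the libraries close together. It was at 15.8 and 17.6 FPKM in the adenoma libraries, at 20.9 and 18.1 FPKM in the pre-metastatic and at 23.9 and 23.3 FPKM in the metastatic ones. Neither pair of neighboring stages overlapped. The adenoma mean was 16.7 ± 1.29 FPKM (SD, n = 2), the pre-metastatic mean 19.5 ± 1.99 FPKM (SD, n = 2) and the metastatic mean 23.6 ± 0.426 FPKM (SD, n = 2). Set against A-LMSCs, the log2 fold change was 0.48 in M-LMSCs (SE 0.12, limma adjusted p = 0.160) and 0.21 in PM-LMSCs (SE 0.12, limma adjusted p = 0.847). It was 0.27 between M-LMSCs and PM-LMSCs (adjusted p = 0.585) and 0.34 for the later stages combined (SE 0.10, limma adjusted p = 0.300). With the replicate block the adjusted p for M-LMSCs was 0.0721, and leaving out any 1 library kept the log2 fold change there between 0.40 and 0.55. A stretch of 72 exonic bases of Stat3 overlaps Stat5a on the opposite strand, and Stat5a was at 1.38 to 2.19 FPKM. As Stat3 was, the haematopoietic, epithelial and endothelial marker sums were higher in both M-LMSC libraries than in the 4 others. The mesothelial sums were, also as Stat3 was, higher in all 4 later-stage libraries than in A-LMSCs. The part of these markers in the result was not tested.

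Socs3 (ENSMUSG00000053113; minus strand of chromosome 11, 117966079 to 117970047) was high in a single library. It was at 9.66 and 9.04 FPKM in the adenoma libraries, at 10.1 and 9.61 FPKM in the pre-metastatic and at 9.49 and 16.3 FPKM in the metastatic ones. M-LMSC replicate 2 was 1.72 times M-LMSC replicate 1, and the other 5 libraries lay between 9.04 and 10.1 FPKM. The log2 fold change of M-LMSCs against A-LMSCs was 0.38 (SE 0.23, limma adjusted p = 0.463), and 0.02 without that library. Both mesenchymal and mesothelial marker sums were highest in the same library, at 2975 and 515 FPKM, and their part in the result was not tested.

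By count, 0 of the 8 tested genes passed an adjusted p of 0.05 in limma in any of the 4 contrasts, where 0.0389% of all genes tested passed for PM-LMSCs against A-LMSCs, 0.0681% for M-LMSCs against A-LMSCs, 0.0292% for M-LMSCs against PM-LMSCs and 0.126% for the later stages combined. At an unadjusted p under 0.05 there were 2 of 8 in PM-LMSCs against A-LMSCs (Lif higher and Il6st lower; 6.53% of all genes tested), 3 of 8 in M-LMSCs against A-LMSCs (Lif, Osmr and Stat3, all higher; 14.6%), 1 of 8 between M-LMSCs and PM-LMSCs (Osmr, higher; 8.94%) and 2 of 8 in the later stages combined (Lif and Stat3, higher; 11.2%). With the replicate block, Lif was called in M-LMSCs against A-LMSCs and in the later stages combined, which is 1 of 8 where 3.92% and 2.05% of all genes tested were called. The block called 0 of the 8 in PM-LMSCs against A-LMSCs (0.292% of all genes tested) and between M-LMSCs and PM-LMSCs (0.418%).

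By overlap of libraries, both M-LMSC libraries lay above both A-LMSC libraries in 3 of the 8 genes (Lif, Osmr and Stat3), against 27.1% of all genes tested, and below them in 0 (24.4%). In PM-LMSCs the same held for Lif and Stat3 above (19.6%) and for Il6st below (19.7%). Each of the 4 later libraries exceeded both A-LMSC libraries in Lif and Stat3 (10.7%). Between the later stages Il6st, Osmr and Stat3 lay higher in both M-LMSC libraries (17.8%) and 0 lay lower (16.7%). In M-LMSCs against A-LMSCs the 8 had a median of 0.39 on the log2 scale, with 6 above 0, beside a median of 0.03 and 5618 of 10279 above 0 over all genes tested. In PM-LMSCs the medians were 0.07 and 0.01.

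**Figure D3:**
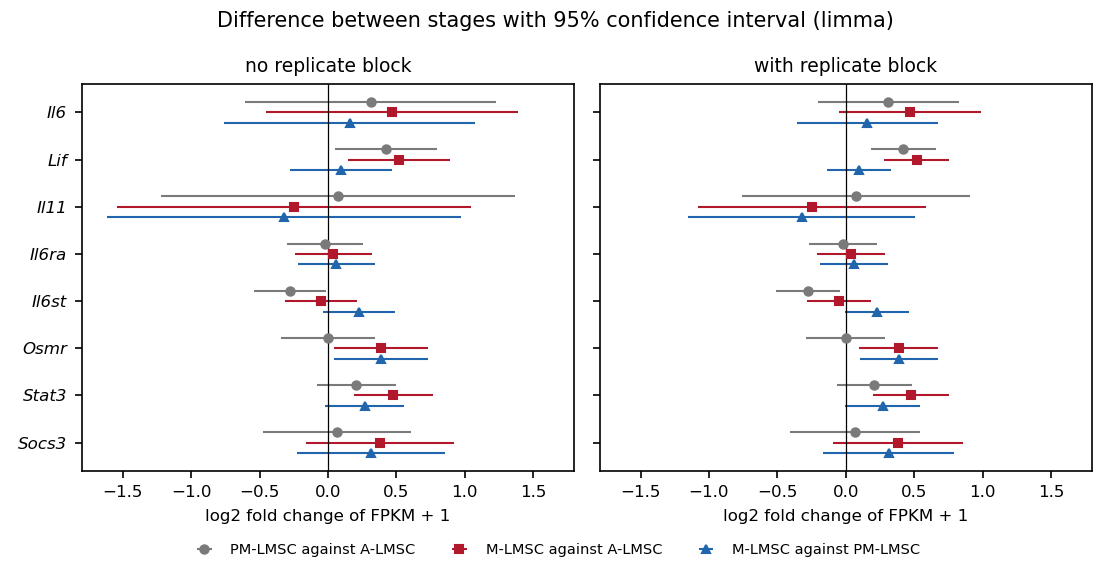
Log2 fold change of FPKM + 1 (horizontal axis) of the 8 tested genes in 3 contrasts between stages, with 95% confidence intervals from limma, without (left) and with (right) the replicate number as a block. The intervals of Lif, Osmr and Stat3 in M-LMSCs against A-LMSCs lay above 0 in both fits, and those of Il6 and Il11 were the widest.

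The other genes of the pathway were taken from 8 lists, which with the 9 genes above held 83 genes. Of the other 74 genes 57 passed the filter, and without the block limma called 0 of them in any of the 4 contrasts. At an unadjusted p under 0.05 there were 2 of 57 in PM-LMSCs against A-LMSCs, which is 3.51% beside 6.53% of all genes tested, and 5 in M-LMSCs against A-LMSCs, 8.77% beside 14.6%. There were 7 between M-LMSCs and PM-LMSCs, 12.3% beside 8.94%, and 6 in the later stages combined, 10.5% beside 11.2%. With the replicate block, 3 of 57 were called in M-LMSCs against A-LMSCs (Saa3 and Ccl2 higher, Fosl1 lower), which is 5.26% beside 3.92% of all genes tested, and 2 in the later stages combined (Saa3 and Ccl2), 3.51% beside 2.05%.

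**Figure D4:**
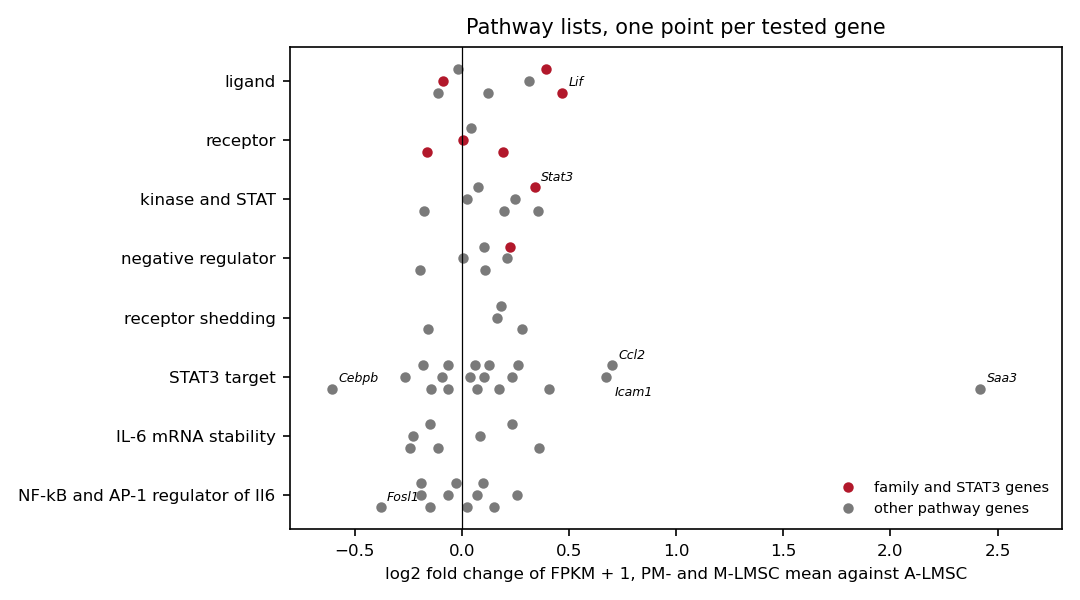
Log2 fold change of FPKM + 1 of PM-LMSCs and M-LMSCs together against A-LMSCs (horizontal axis) for each tested gene of the 8 pathway lists (rows; red for the family and STAT3 genes, gray for the others; small vertical offsets only separate the points). Most genes lay within 0.5 of 0, and Saa3 lay apart at 2.42.

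Of the kinases and STATs all 7 listed genes passed the filter, and 6 of 7 had a log2 fold change above 0 in M-LMSCs against A-LMSCs, with a median of 0.32. Jak1, a kinase bound to gp130 and the most abundant of the list, was at 26.6 and 26.9 FPKM in the adenoma libraries, at 31.2 and 25.5 FPKM in the pre-metastatic and at 36.7 and 30.9 FPKM in the metastatic ones (log2 fold change in M-LMSCs 0.32, limma adjusted p = 0.355). Jak2 was at 5.21 to 9.84 FPKM, highest in M-LMSC replicate 1, and Tyk2 was the gene of the list that lay lower in all 4 later-stage libraries, at 6.94 and 6.79 FPKM before and 5.44 to 6.20 FPKM afterwards.

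Among the negative regulators 6 of 9 passed the filter, and 0 were called by limma in any contrast with or without the block. At an unadjusted p under 0.05 there were 0 without the block, and Ptpn2 in PM-LMSCs against A-LMSCs with it. For the block fit the share of all genes tested at this threshold was not counted. Ptpn11, which encodes the phosphatase SHP2 and was the most abundant, was at 24.5 to 27.1 FPKM in all libraries but M-LMSC replicate 1, where it was at 13.8 FPKM. In the metastatic libraries Socs1 was at 2.33 and 4.50 FPKM, and Socs1 and Pias3 were, with Socs3, the 3 of 6 tested regulators that were highest in M-LMSC replicate 2. Ptpn2 had a log2 fold change of 0.21 in the later stages combined and Pias1 of 0.11. Of the 4 genes for receptor shedding, all tested, Adam10 was the most abundant at 12.0 to 19.5 FPKM. Adam10 (0.28 in the later stages combined), Adam17 (0.18), the protease that cleaves the IL-6 receptor, and its partner Rhbdf2 (0.17) were higher on the mean and Rhbdf1 was lower, and 0 of the 4 were called by limma with or without the block. At an unadjusted p under 0.05 there were 0 without the block, and with it Adam10 and Adam17 in 2 contrasts each. Such a p was common with the block, at 12.3% of the 57 other pathway genes tested in PM-LMSCs against A-LMSCs. In M-LMSCs against A-LMSCs it was 22.8% of them.

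STAT3 targets were the list with the widest range. Of 22 genes 19 were tested, and their median log2 fold change in M-LMSCs against A-LMSCs was 0.16, with 15 above 0. Saa3, which encodes an acute-phase serum amyloid A protein, was at 3.25 and 2.04 FPKM in the adenoma libraries, at 15.7 and 6.99 FPKM in the pre-metastatic and at 19.9 and 48.2 FPKM in the metastatic ones. Each of the 4 later libraries exceeded both A-LMSC libraries, with ratios of the means of 4.28 in PM-LMSCs and 12.9 in M-LMSCs. The log2 fold change of Saa3 was 3.16 in M-LMSCs (SE 0.48, limma adjusted p = 0.0875, and 0.0232 with the replicate block) and 2.42 in the later stages combined (SE 0.41, limma adjusted p = 0.132, and 0.0414 with the block). Without M-LMSC replicate 1 it was called in both these contrasts without the block. Ccl2, a chemokine for monocytes, was at 18.5 and 10.3 FPKM in the adenoma libraries, at 27.3 and 19.2 FPKM in the pre-metastatic and at 28.6 and 19.2 FPKM in the metastatic ones, higher at the later stages within each replicate number. For the later stages combined its log2 fold change was 0.70 (SE 0.27, limma adjusted p = 0.422, and 0.0297 with the block), and 0.72 for the metastatic stage alone (limma adjusted p = 0.355, blocked 0.0250). Icam1, an adhesion molecule, was at 16.6 and 17.7 FPKM in the adenoma libraries, at 28.5 and 36.9 FPKM in the pre-metastatic and at 17.2 and 33.4 FPKM in the metastatic ones (0.67 in the later stages combined, limma adjusted p = 0.405), and was called in that contrast without M-LMSC replicate 1. Timp1, the most abundant target and an inhibitor of metalloproteinases, was at 837 to 1013 FPKM. The haematopoietic, epithelial and endothelial marker sums were, as Saa3 was, higher in both M-LMSC libraries than in the 4 others. The mesothelial sums were, as Saa3 and Ccl2 were, higher in all 4 later-stage libraries than in A-LMSCs. They were highest in M-LMSC replicate 2, as Saa3 was, and higher in replicate 2 than in replicate 1 at each stage, as Icam1 was. The part of these markers in the results was not tested.

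The library in which Socs3 was high was also the highest for 8 of the 19 tested STAT3 targets: Bcl3, Cebpb, Cebpd, Pim1, Mcl1, Saa3, Irf1 and Il4ra. That is 42.1% of them, where 16.6% of all genes tested were highest in M-LMSC replicate 2. The other M-LMSC library, in which Il6 and Il11 were high, was the highest for Fos, Ccl2, Hif1a and Vegfa, 21.1% of the 19, where the share of all genes tested was 25.1%. Within M-LMSCs the libraries high in Il6 and Il11 and high in Socs3 were therefore different ones.

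**Figure D5:**
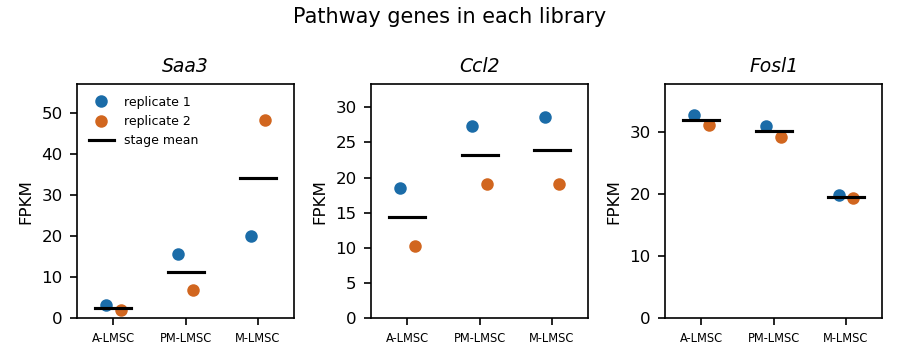
Level in FPKM (vertical axes, each from 0) of Saa3, Ccl2 and Fosl1, the pathway genes called with the replicate block, in the 2 libraries of each stage (points) with the stage mean (bar). Saa3 was at 2.04 to 3.25 FPKM in A-LMSCs and 19.9 to 48.2 FPKM in M-LMSCs, and Fosl1 was lower in both M-LMSC libraries than in the 4 others.

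Genes that act on Il6 from its promoter or through its mRNA had medians just below 0. Of the 11 NF-kB and AP-1 genes, all tested, the median log2 fold change was -0.10 in M-LMSCs against A-LMSCs, with 5 above 0, and without the block 0 were called by limma in any contrast (Fosl1 and Nfkbiz at an unadjusted p under 0.05). Fosl1, an AP-1 subunit, was at 32.9 and 31.1 FPKM in the adenoma libraries, at 31.0 and 29.3 FPKM in the pre-metastatic and at 19.9 and 19.5 FPKM in the metastatic ones, where the log2 fold change was -0.68 (SE 0.10, limma adjusted p = 0.0875, and 0.0218 with the block). Fosl1 shares 1056 bases with Ccdc85b, so that its value depends on how reads there were counted. Rela, the NF-kB subunit with the highest level of the list, was at 43.7 and 44.2 FPKM in the adenoma libraries and 36.2 to 41.6 FPKM at the later stages, while Relb had a log2 fold change of 0.26 in the later stages combined and Nfkb2 of -0.19, and neither was called by limma. Of the 10 genes that act on the stability of the Il6 mRNA, 7 were tested, with a median of -0.12 in M-LMSCs. With or without the block, 0 were called by limma. Zfp36l1 had an unadjusted p under 0.05 in both fits and Rc3h1 with the block, where the share of all genes tested was not counted. Zfp36l2 was the most abundant at 34.8 to 42.0 FPKM. Zfp36l1, a decay factor for AU-rich mRNAs, was at 7.07 and 6.67 FPKM in the adenoma libraries, at 6.93 and 8.34 FPKM in the pre-metastatic and at 9.43 and 12.5 FPKM in the metastatic ones (0.59 in M-LMSCs, limma adjusted p = 0.189). It shares 1491 bases with Gm26669, so that its value also depends on how reads there were counted. Hnrnpd (-0.24 in the later stages combined) and Rc3h1 (0.23), which also bind mRNAs for decay, did not pass.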

How the data were processed

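Cultured LMSCs of 3 tumor stages, 2 libraries each, were sequenced by the authors. The ages printed are those of the labels; the study's methods give slightly older mice for the earlier stages. The deposited table holds FPKM values per gene, made by the authors, whose processing notes name TopHat2 2.0.9 and mm10; the counting tool and annotation are not given in the sources used here.

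Values were tested as log2(FPKM + 1) in limma 3.58.1 (R 4.3.3), with 1 mean per stage, a trend in the spread and all 6 libraries, over 10279 genes whose mean reached 1 FPKM, two-sided, with Benjamini-Hochberg adjustment and a threshold of 0.05. Each later stage was set against A-LMSCs, singly and combined, and M-LMSCs against PM-LMSCs; these 4 contrasts share libraries. The labels do not tie libraries to animals, so p-values measure the spread between these libraries. Deviations of same-numbered libraries (replicates 1 and 2 in the labels) from their stage means correlated across genes at 0.238, 0.307 and 0.491 in the 3 pairs of stages. The fit with the number as a block is therefore printed where it changes a call. The labels do not say what same-numbered libraries share, so calls made only with the block depend on an assumed pairing.

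Depth came from the spacing of low values of single-transcript genes, with 96.9 to 97.3% of them within 0.1 of a whole fragment. Estimated fragments use the longest transcript that the annotation marks as principal, and their error covers counting only. Copies were sought with blastn 2.17.0 at 95% identity over 200 bases. Of the 83 genes of the pathway lists, 24 shared such a stretch with another gene, so their values depend on how reads there were counted. Among them were Cntf (851 bases), Tyk2 (555 bases), Icam1 (511 bases) and Cebpb (320 bases). All 9 genes matched the RefSeq promoters. Scripts were tested on simulated data.

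The 9 genes, the lists and the tests were chosen with earlier results of these data known. Named were the 9 genes; from each pathway list the most abundant gene, any called gene and up to 3 with the largest absolute fold change of the later stages combined; the 3 genes nearest in profile to each ligand; and markers that touched a result. Some genes of the pathway lists that this rule would name are not reported here. Any gene named beyond this rule was picked with its values in view. Alternatives were a pseudocount of 0.1, no filter (21698 genes), quantile normalization, centering on the median, only the compared stages, the replicate block and leaving out each library.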

Additional observations from a re-analysis of the deposited data

Results flagged for a closer look

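Among the STAT3 targets, Lcn2 and Irf1 lay on opposite sides of the adenoma values at the later stages, with both PM-LMSC libraries below and both M-LMSC libraries above both A-LMSC libraries. Lcn2, which encodes the siderophore-binding lipocalin 2, was at 0.0197 and 0.0470 FPKM in the adenoma libraries, at 0 and 0 FPKM in the pre-metastatic and at 0.0621 and 2.41 FPKM in the metastatic ones. On the log2 scale its mean was 0.93 higher in M-LMSCs than in PM-LMSCs, nearly all of it from M-LMSC replicate 2. The difference was not tested because Lcn2 did not reach the mean of 1 FPKM. In the other libraries Lcn2 was near 0, so the order of those values lay at the limit of detection. Irf1, an interferon-response transcription factor, was at 1.95 and 1.98 FPKM in the adenoma libraries, at 1.74 and 1.89 FPKM in the pre-metastatic and at 2.26 and 2.62 FPKM in the metastatic ones. Its log2 fold change of M-LMSCs against PM-LMSCs was 0.29 (SE 0.12, limma adjusted p = 0.549), which did not pass. With 2 libraries per stage, no single value could be tested for lying apart from its group.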

How the results depend on the processing

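Of 376 refits of the tested family and STAT3 genes under the alternatives, 350 kept their direction and their side of the threshold, 24 reversed and 2 passed it: Lif in M-LMSCs against A-LMSCs and in the later stages combined, with the replicate block. The block moved the number of these genes called from 0 to 1 in both contrasts and that of the 83 pathway genes from 0 to 4 and 3; leaving out libraries gave 0 to 1 and 0 to 2 pathway genes, the highest without M-LMSC replicate 1 (Saa3, then Saa3 and Icam1). The block changed no other call of the tested family and STAT3 genes. The adjusted p of Lif ranged from 0.0421 to 0.728 in M-LMSCs and from 0.0499 to 0.999 in the later stages combined. The fit on the compared stages alone gives no value for the latter.

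Il6ra reversed to -0.028 under quantile normalization and -0.011 with centering on the median in M-LMSCs against A-LMSCs, and to -0.051 and -0.032 in the later stages combined. With 1 library left out, where a lone library is assumed to vary like the other stages, the log2 fold change ranged as follows in the results that reversed. In M-LMSCs against A-LMSCs Il6 ranged from -0.14 to 1.08, Il11 from -1.16 to 0.67, Il6ra from -0.052 to 0.13 and Il6st from -0.13 to 0.032. In PM-LMSCs against A-LMSCs Il11 ranged from -0.22 to 0.37, Il6ra from -0.11 to 0.067 and Osmr from -0.13 to 0.13. Between M-LMSCs and PM-LMSCs Il6 ranged from -0.45 to 0.77, Lif from -0.031 to 0.22, Il11 from -1.23 to 0.59 and Socs3 from -0.048 to 0.68. In the later stages combined Il11 ranged from -0.54 to 0.37 and Il6ra from -0.082 to 0.097. The cause was not tested. With 2 libraries per stage and the few estimated fragments of Il6, Il6ra and Lifr, small differences in these genes were not detectable.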

Other observations

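Hp (haptoglobin), an acute-phase gene, was at 3.90 FPKM in M-LMSC replicate 2 and at 0.0714 to 0.450 FPKM in the other 5 libraries, and Lcn2 and Saa3, at 2.41 and 48.2 FPKM, were highest in the same library. Hp and Lcn2 did not reach the mean of 1 FPKM. Fgl1, another acute-phase gene of the STAT3 target list, was at 0 in M-LMSC replicate 2 and highest in PM-LMSC replicate 2, at 0.0250 FPKM, and these genes were singled out after their values were seen.

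Cebpb, which encodes a transcription factor downstream of IL-6, was at 10.1 FPKM in PM-LMSC replicate 2 and at 99.6 to 165 FPKM in the other 5 libraries. Its log2 fold change of PM-LMSCs against A-LMSCs was -1.47 (SE 1.03, limma adjusted p = 0.859). Socs2, another feedback inhibitor, was at 0.434 and 0.430 FPKM in the adenoma libraries, at 0.786 and 0.588 FPKM in the pre-metastatic and at 1.27 and 0.872 FPKM in the metastatic ones, and was below the filter.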
